A study of Homo sapiens with 12 samples.

Results

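The 9 genes described here encode the hypoxia-inducible factor (HIF) subunits HIF1A, EPAS1 and ARNT, the oxygen sensing and degradation genes EGLN1, HIF1AN and VHL, and the hypoxia effectors BHLHE40, BNIP3 and BNIP3L. They were taken by gene symbol, with earlier results of these data known, and every probe set of each was used. All 9 were on the array, with 16 of the 19064 probe sets that list a single gene, among 11963 genes in all. The cells were RCC4, a long-established line from a human clear cell kidney cancer, measured on 12 Affymetrix expression arrays in 4 groups of 3, which the submitters call biological triplicates. The groups were siRNA against TAZ with erastin (siTAZ erastin), siRNA against TAZ with DMSO vehicle (siTAZ DMSO), non-targeting siRNA with erastin (siNT erastin) and non-targeting siRNA with DMSO (siNT DMSO). TAZ is the Hippo pathway coactivator encoded by WWTR1. Erastin, an inhibitor of cystine uptake that can trigger ferroptosis, was given at 1 µM for 7 hours after 2 days of siRNA. Every group received an siRNA, and the labels name no low oxygen treatment and give no oxygen level. All arrays came from this 1 line, which is known to lack functional VHL protein and to produce both HIF-α proteins, so the control cells carry that defect too.

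A HIF is a pair of an oxygen-sensitive α subunit, encoded by HIF1A or EPAS1 (HIF-2α), and the stable β subunit encoded by ARNT. With oxygen present, the prolyl hydroxylase encoded by EGLN1 (PHD2) marks the α subunit, VHL binds the mark and has the subunit degraded, and the asparaginyl hydroxylase encoded by HIF1AN (FIH) blocks its contact with coactivators. In clear cell renal carcinoma VHL is commonly lost, the α subunits escape degradation, and HIF-2α is regarded as the main driver. EGLN1, BHLHE40, BNIP3 and BNIP3L are themselves known HIF target genes. BHLHE40 encodes a transcriptional repressor with a role in the circadian clock, and BNIP3 and BNIP3L (NIX) encode related outer mitochondrial membrane proteins that recruit the autophagy machinery to mitochondria.

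The 250 bases before the annotated start of 4 members are shown because 3 of them (EPAS1, EGLN1 and BHLHE40) were lower on siTAZ arrays and the fourth, the known HIF target BNIP3, did not pass the test. Sequences are those of RefSeq on GRCh38.p14, written 5′ to 3′ on the gene's strand and ending at the base before the start. Capitals mark the core of a hypoxia response element, ACGTG or GCGTG on either strand, where overlapping matches run together.
EPAS1 at chr2:46297157-46297406, plus strand: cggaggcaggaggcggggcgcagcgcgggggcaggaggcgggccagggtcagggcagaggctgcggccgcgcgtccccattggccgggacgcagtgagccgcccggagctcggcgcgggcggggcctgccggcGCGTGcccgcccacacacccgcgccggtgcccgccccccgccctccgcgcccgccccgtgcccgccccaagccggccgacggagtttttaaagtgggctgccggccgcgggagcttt
EGLN1 at chr1:231422288-231422537, minus strand: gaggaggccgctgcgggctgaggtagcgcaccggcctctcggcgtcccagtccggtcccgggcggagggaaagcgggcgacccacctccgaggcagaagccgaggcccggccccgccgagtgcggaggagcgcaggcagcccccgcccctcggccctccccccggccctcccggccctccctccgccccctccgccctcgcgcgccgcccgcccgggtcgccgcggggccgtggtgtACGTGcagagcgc
BHLHE40 at chr3:4979187-4979436, plus strand: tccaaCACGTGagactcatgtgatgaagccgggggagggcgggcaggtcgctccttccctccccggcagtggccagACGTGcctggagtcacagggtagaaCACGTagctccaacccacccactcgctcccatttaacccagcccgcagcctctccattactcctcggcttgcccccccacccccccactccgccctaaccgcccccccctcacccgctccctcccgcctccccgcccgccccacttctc
BNIP3 at chr10:131981924-131982173, minus strand: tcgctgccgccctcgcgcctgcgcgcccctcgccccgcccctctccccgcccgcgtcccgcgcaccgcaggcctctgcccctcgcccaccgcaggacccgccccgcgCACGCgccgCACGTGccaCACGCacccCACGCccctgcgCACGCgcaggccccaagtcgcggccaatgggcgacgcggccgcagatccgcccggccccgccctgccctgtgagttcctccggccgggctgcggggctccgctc
EPAS1 and EGLN1 each held 1 match. BHLHE40 held 4 and BNIP3 held 6 matches, both counts including a CACGTG that is read once on each strand. Such a core occurred in 43.2% of 35116 RefSeq promoter windows of this length. The TEAD core GGAATG, the letters bound by the DNA-binding partners of TAZ, was in 11.9% of those windows and in none of these 4 on either strand. A match is only a match of letters in this window. The upstream sequence of the other members is not shown. There, ARNT and HIF1AN held 0 hypoxia core matches. HIF1A held 1 before its upstream start and 0 before its downstream start. No window is given for BNIP3L, which was also lower on siTAZ arrays, or for VHL.

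The target gene was checked first. WWTR1 averaged 9.15 and 9.34 log2 units on siTAZ erastin and siTAZ DMSO arrays, against 12.27 and 12.29 on siNT erastin and siNT DMSO arrays. Its signal was thus 11.5% of siNT under erastin and 13.0% of siNT in DMSO. All array medians lay between 6.48 and 6.54 log2 units, and arrays of a group correlated at 0.9955 to 0.9985 over all probe sets. Of 12 measured genes that mark renal epithelium or clear cell carcinoma, 11 averaged 8.20 (PAX2) to 13.5 (VIM), while AQP1 averaged 4.25. In contrast, 20 marker genes of leukocytes, endothelium and erythroid cells averaged 2.64 to 6.43 with a median of 4.50, which is taken here as the range of dim signals. The mean log2 signals of these marker lists moved little, with group means of 4.45 to 4.48 for leukocytes, 4.31 to 4.37 for endothelium and 4.89 to 4.94 for erythroid cells. RNA quality was read from the actin control probe sets as the 3′ signal less the 5′ signal, which was 3.25 ± 0.33 on siTAZ erastin arrays and 2.26 ± 0.69 on siNT erastin arrays (SD, n = 3), against 2.65 ± 0.04 on siTAZ DMSO and 2.68 ± 0.28 on siNT DMSO arrays. The array number limits the precision of every value.

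With siRNA against TAZ, the HIF genes moved in both directions. The labels name no second siRNA against TAZ and no rescue. Loss of WWTR1 and other effects of this siRNA therefore cannot be told apart. EPAS1, EGLN1, BHLHE40 and BNIP3L were lower on every siTAZ array than on any siNT array of the same medium, and HIF1AN was higher on every siTAZ array, with HIF1A higher on every siTAZ array in DMSO. Calls of a rise or a fall rest on limma, a linear model with moderated variances, with a threshold of 0.05 on the p adjusted by Benjamini-Hochberg across all 11963 genes, and the error after ± is the standard error of that fit. Under erastin 5 of the 9 members were called, 1 up and 4 down, against 28.2% of all genes (15.6% up and 12.6% down). In DMSO 6 of 9 were called, 2 up and 4 down, against 28.6% of all genes (14.7% up and 13.9% down). Over all 16 probe sets 7 were called under erastin and 8 in DMSO, against 24.6% and 24.3% of all probe sets; 1 of the 7 is a dim BHLHE40 probe set. The groups did not overlap for 6 members under erastin and 7 in DMSO, against 38.8% and 43.8% of all genes. The 6 include VHL, whose signals were dim, and the 7 include BNIP3, and neither was called. The median log2 fold change of the members was 0.05 under erastin and 0.07 in DMSO, beside 0.01 and −0.01 for all genes. The 4 falls were also called in both media with the actin signal as a covariate.

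**Figure D1:**
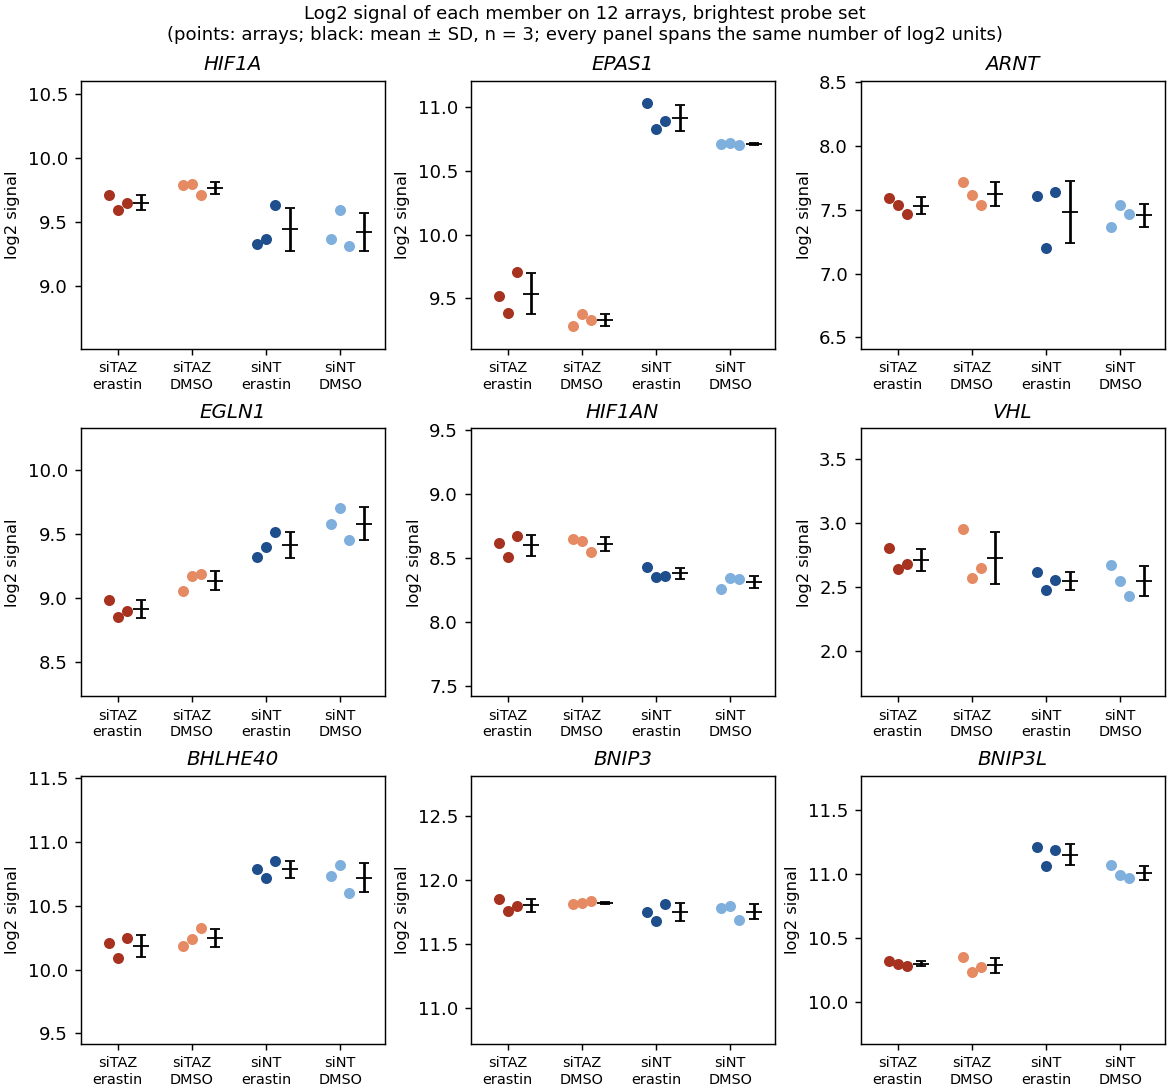
Log2 signal of the brightest probe set of each of the 9 members (y axis) on the 12 arrays, by group (x axis); points are arrays and black marks are the mean ± SD of 3 arrays, and every panel spans the same number of log2 units. EPAS1 and BNIP3L show the widest gaps, with siTAZ arrays at most 9.71 for EPAS1 and 10.35 for BNIP3L and siNT arrays at least 10.70 and 10.97.

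EPAS1, the gene for HIF-2α, fell most of the 9. Its brightest probe set read 9.52, 9.39 and 9.71 on the siTAZ erastin arrays, against 11.03, 10.83 and 10.89 on the siNT erastin arrays. In DMSO it read 9.28, 9.37 and 9.33 on siTAZ arrays, against 10.71, 10.72 and 10.70 on siNT arrays. Every siTAZ array lay more than 1 log2 unit below every siNT array of its medium, and the siNT DMSO arrays were almost identical to each other. The log2 fold change was −1.38 ± 0.08 in each medium (adjusted p = 1.72e-07 under erastin and 1.41e-07 in DMSO), which left 38.5% and 38.4% of the siNT signal. Ranked from the lowest of 11963 genes, EPAS1 stood at place 19 under erastin and 22 in DMSO. Over both media, 9.43 ± 0.16 on siTAZ and 10.81 ± 0.13 on siNT arrays (SD, n = 6) differed with p = 0.005 in an exact permutation test (two-sided), which is the lowest p that 400 arrangements within the media allow. The permutation p-values of members, here and below, come from 18 such tests and are unadjusted. In such bulk samples, less EPAS1 RNA in each cell and fewer cells with it cannot be told apart.

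The other EPAS1 probe set was dim. It averaged 4.25 on siTAZ erastin and 4.05 on siTAZ DMSO arrays, against 4.24 on siNT erastin and 4.32 on siNT DMSO arrays, which lies among the dim marker genes named above. Its log2 fold changes of 0.01 ± 0.10 under erastin and −0.27 ± 0.10 in DMSO were not called (adjusted p = 0.98 and 0.06). The fall of EPAS1 therefore rests on 1 probe set. Averaging both probe sets gave −0.69 under erastin and −0.83 in DMSO, both called (adjusted p = 3.71e-05 and 8.08e-06). That average contains the bright probe set, so it is no separate reading of the fall.

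HIF1A, the gene for the other α subunit, moved the opposite way by a smaller amount. Its single probe set read 9.71, 9.59 and 9.65 on siTAZ erastin arrays, against 9.33, 9.36 and 9.63 on siNT erastin arrays. In DMSO the signals were 9.79, 9.79 and 9.71 on siTAZ arrays, against 9.36, 9.59 and 9.31 on siNT arrays. Under erastin the groups overlapped because siNT erastin replicate 3 lay above one siTAZ erastin array, while in DMSO all siTAZ arrays were higher. The log2 fold change in DMSO was 0.34 ± 0.09, or 1.27-fold (adjusted p = 0.0121), and without siNT DMSO replicate 3 it was 0.29 with no call (adjusted p = 0.0542). Under erastin the change was 0.21 ± 0.09 and not called (adjusted p = 0.109). A call was made there without siNT erastin replicate 3 (0.31, adjusted p = 0.0148), with array weights (0.31, adjusted p = 0.00758), with trend and robust settings (adjusted p = 0.0397) and with the actin signal as a covariate (0.42, adjusted p = 0.0114). Over both media HIF1A was 9.71 ± 0.08 on siTAZ and 9.43 ± 0.14 on siNT arrays (SD, n = 6; exact permutation p = 0.01).

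The α subunits thus changed unequally. The log2 difference EPAS1 minus HIF1A within arrays shifted by −1.66 between siTAZ and siNT over both media. An exact permutation was also run on this difference. Its p is not used because the pair was picked after its values were seen, so the shift is only a description. ARNT, the shared partner, was not called on any of its 3 probe sets. On its brightest probe set ARNT lay at 7.47 to 7.60 on siTAZ erastin and 7.54 to 7.72 on siTAZ DMSO arrays, against 7.20 to 7.64 on siNT erastin and 7.36 to 7.54 on siNT DMSO arrays. These ranges overlapped in both media, with log2 fold changes of 0.05 ± 0.10 (95% confidence interval −0.17 to 0.28) and 0.17 ± 0.10 (−0.06 to 0.39). The intervals allow a rise of ARNT but no fall as large as that of EPAS1.

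**Figure D2:**
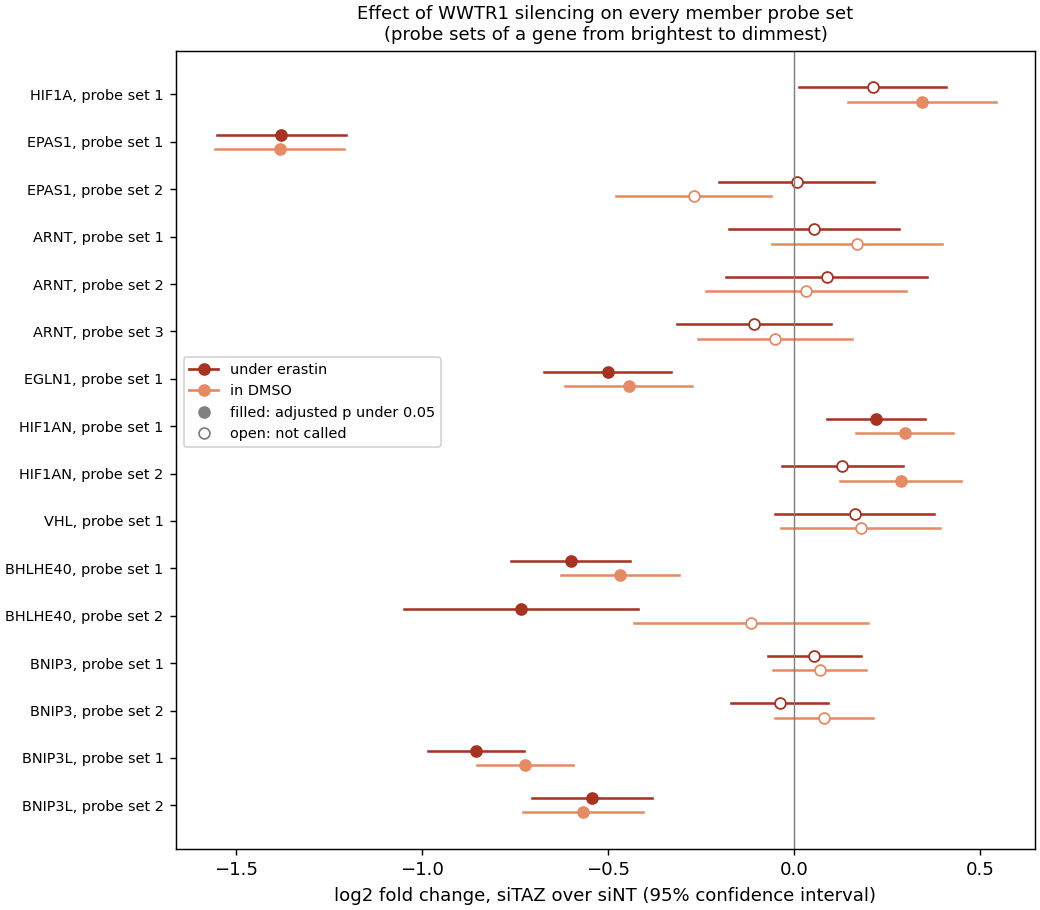
Log2 fold change of siTAZ over siNT (x axis) for all 16 probe sets of the 9 members (y axis), under erastin and in DMSO, with bars for the 95% confidence interval of the limma fit over all probe sets; filled points passed an adjusted p of 0.05. EPAS1 probe set 1 stands apart at −1.38 in each medium, both BNIP3L probe sets lie between −0.54 and −0.86, and the dim EPAS1 probe set 2 lies near 0 under erastin.

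Among the oxygen sensors, EGLN1 fell and HIF1AN rose. EGLN1, the prolyl hydroxylase gene, read 8.99, 8.85 and 8.90 on siTAZ erastin arrays, against 9.32, 9.40 and 9.52 on siNT erastin arrays. Its DMSO signals were 9.05, 9.17 and 9.18 on siTAZ arrays, against 9.58, 9.71 and 9.45 on siNT arrays. The siTAZ arrays were lower without overlap in each medium, by −0.50 ± 0.08 under erastin (adjusted p = 0.000355) and −0.44 ± 0.08 in DMSO (adjusted p = 0.000817), which left 70.7% and 73.5% of the siNT signal. EGLN1 has a single probe set on this array, of a type whose probes can match other transcripts, so no second reading of it exists here. Over both media the means were 9.02 ± 0.14 on siTAZ and 9.50 ± 0.14 on siNT arrays (SD, n = 6; exact permutation p = 0.005).

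HIF1AN, the asparaginyl hydroxylase gene, read 8.62, 8.51 and 8.67 on siTAZ erastin arrays, against 8.43, 8.35 and 8.36 on siNT erastin arrays. The DMSO signals were 8.65, 8.63 and 8.55 on siTAZ arrays, against 8.26, 8.35 and 8.34 on siNT arrays. All siTAZ arrays were higher, by a small amount. The rise was 0.22 ± 0.06 under erastin (adjusted p = 0.0132) and 0.30 ± 0.06 in DMSO (adjusted p = 0.00192), or 1.16-fold and 1.23-fold. The call under erastin was lost without siTAZ erastin replicate 3 (0.18, adjusted p = 0.0583), with only the compared groups in the fit (adjusted p = 0.0552) and with the actin covariate (0.22, adjusted p = 0.0901), and the dimmer probe set gave 0.13 there without a call (adjusted p = 0.263). In DMSO the dimmer probe set gave 0.29 and was called (adjusted p = 0.0136).

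VHL, the recognition subunit of the ubiquitin ligase, had only dim readings. Its single probe set lay at 2.64 to 2.81 on siTAZ erastin and 2.57 to 2.96 on siTAZ DMSO arrays, against 2.47 to 2.61 on siNT erastin and 2.43 to 2.67 on siNT DMSO arrays. These signals are at the low end of the dim marker genes, close to the 2.64 of LYZ, a leukocyte gene. The log2 fold changes of 0.16 ± 0.10 and 0.18 ± 0.10 were not called (adjusted p = 0.263 and 0.215). The array thus gave no usable reading of VHL mRNA, and no size is drawn from it.

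BHLHE40, the repressor gene, fell in both media. It read 10.21, 10.09 and 10.25 on siTAZ erastin arrays, against 10.79, 10.72 and 10.85 on siNT erastin arrays. In DMSO it read 10.19, 10.24 and 10.32 on siTAZ arrays, against 10.74, 10.82 and 10.60 on siNT arrays. There was a clear gap between siTAZ and siNT arrays, of −0.60 ± 0.07 under erastin (adjusted p = 4.9e-05) and −0.47 ± 0.07 in DMSO (adjusted p = 0.000313), which left 65.9% and 72.3% of the siNT signal. The dimmer probe set averaged 5.29 on siTAZ erastin and 6.02 on siNT erastin arrays, a difference of −0.74 ± 0.14 that passed the threshold (adjusted p = 0.00239). In DMSO it averaged 5.53 on siTAZ and 5.64 on siNT arrays, and its −0.12 ± 0.14 was not called (adjusted p = 0.644). All of these means lie among the dim marker genes, so no size is drawn from that probe set and the fall rests on the brighter one. With both probe sets averaged the DMSO change was −0.29 (adjusted p = 0.0384).

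BNIP3L and BNIP3, the related mitophagy receptor genes, differed. BNIP3L read 10.32, 10.29 and 10.28 on siTAZ erastin arrays, against 11.21, 11.06 and 11.19 on siNT erastin arrays. Its DMSO signals were 10.35, 10.23 and 10.27 on siTAZ arrays, against 11.07, 10.99 and 10.97 on siNT arrays. No siTAZ array came near an siNT array, and the fall of −0.86 ± 0.06 under erastin and −0.72 ± 0.06 in DMSO left 55.3% and 60.6% of the siNT signal (adjusted p = 5.26e-07 and 1.82e-06). A second probe set fell too, with log2 fold changes of −0.54 ± 0.07 under erastin and −0.57 ± 0.07 in DMSO (adjusted p = 0.000176 and 0.000117). BNIP3L is the member whose fall was called on both of its probe sets in both media.

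BNIP3 was called in neither medium. On its brighter probe set the signals were 11.76 to 11.86 on siTAZ erastin and 11.81 to 11.83 on siTAZ DMSO arrays, against 11.68 to 11.82 on siNT erastin and 11.69 to 11.80 on siNT DMSO arrays. The siTAZ DMSO arrays lay just above the siNT DMSO arrays, and the erastin groups overlapped. The log2 fold changes were 0.05 ± 0.05 (95% confidence interval −0.06 to 0.17) under erastin and 0.07 ± 0.05 (−0.05 to 0.19) in DMSO, neither called (adjusted p = 0.544 and 0.424). A second BNIP3 probe set gave −0.04 ± 0.06 and 0.08 ± 0.06, also without a call. Within arrays, BNIP3L minus BNIP3 shifted by −0.85 between siTAZ and siNT, again a description of a pair picked after its values were seen. The permutation p of this pair is likewise not used.

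Erastin itself called none of the 9 members. In siTAZ cells 0 of 9 were called by limma against 0.56% of all genes, and in siNT cells 0 of 9 against 0.802%, while 2 and 3 members had an unadjusted p under 0.05, as did 10.2% and 10.4% of all genes. The largest values were those of EPAS1 and EGLN1, which ran the same way in both siRNAs. EPAS1 was 0.21 ± 0.08 higher with erastin in siTAZ cells and 0.20 ± 0.08 higher in siNT cells (adjusted p = 0.396 and 0.357), without overlap between the erastin and DMSO arrays of either siRNA. EGLN1 was −0.22 ± 0.08 in siTAZ cells and −0.17 ± 0.08 in siNT cells (adjusted p = 0.367 and 0.48), with an overlap in siNT cells. Non-overlapping groups occurred in 20.7% of all genes in siTAZ cells and 14.4% in siNT cells, and for 2 members in each.

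Averaged over both siRNAs, EPAS1 was 0.21 ± 0.06 (limma adjusted p = 0.0997) and EGLN1 −0.20 ± 0.05 (adjusted p = 0.115) with erastin, against 1.9% of genes called in that comparison. In exact two-sided permutations within the siRNAs the p was 0.005 for EPAS1 and 0.015 for EGLN1, of 18 such tests made on members and left unadjusted. Both were called with array weights (adjusted p = 0.0137 and 0.013) and with the trend and robust settings (adjusted p = 0.0137 and 0.0241), and EPAS1 also without siTAZ erastin replicate 2 (adjusted p = 0.0449). The remaining members had average values between −0.05 (HIF1A) and 0.08 (BNIP3L). For BNIP3 the average was −0.01 with a 95% confidence interval of −0.09 to 0.07, and for BHLHE40 0.00 with an interval of −0.11 to 0.11.

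**Figure D3:**
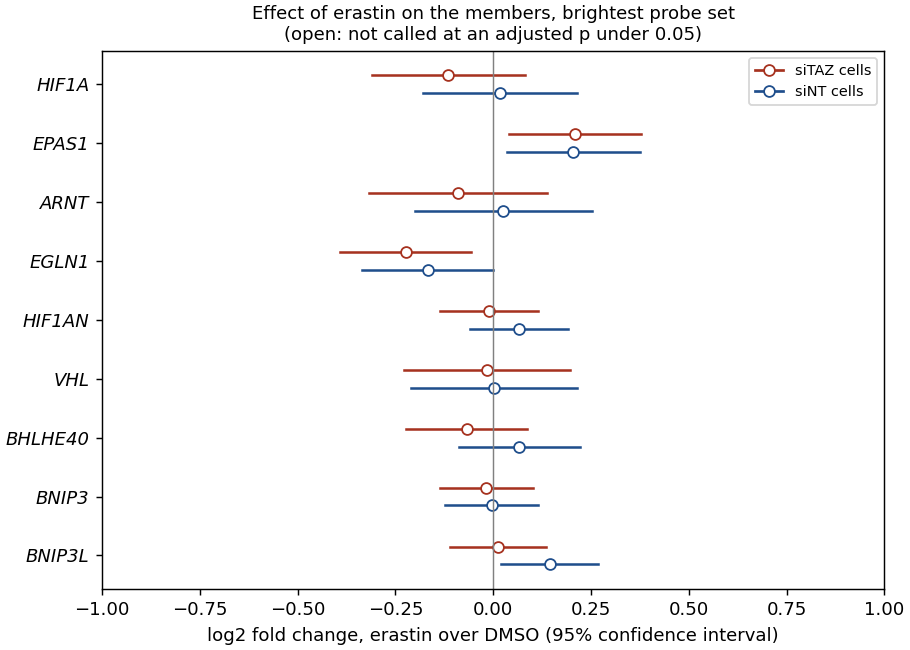
Log2 fold change of erastin over DMSO (x axis) for the brightest probe set of each member (y axis) in siTAZ and in siNT cells, with bars for the 95% confidence interval; all points are open because no member was called. EPAS1 lies at 0.21 and 0.20 and EGLN1 at −0.22 and −0.17, and the other points lie between −0.11 and 0.14.

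The interaction asks whether the erastin response differs between siTAZ and siNT cells. No member was called, and limma called 0 of 11963 genes (0%) in that contrast, with 764 genes but 0 members at an unadjusted p under 0.05. The difference of responses was 0.00 for EPAS1 (95% confidence interval −0.24 to 0.24), −0.13 for BNIP3L (−0.31 to 0.04), −0.13 for BHLHE40 (−0.35 to 0.09) and −0.13 for HIF1A (−0.41 to 0.14). The intervals leave room for differences in either direction. The change of EPAS1 with WWTR1 silenced, −1.38, was larger in size than its shift with erastin, as the plot of signals by array shows.

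For each member called in a pairwise comparison, the 3 genes whose signals over the 12 arrays had the highest Pearson correlation with it were listed among 5980 genes above the median signal. The arrays fall into siTAZ and siNT arrays, so these values mostly reflect that split and are given as a description. EPAS1 was most like HK2 (0.996), the hexokinase gene, ADIPOR2 (0.992), an adiponectin receptor gene, and ADM (0.991), the adrenomedullin gene. BNIP3L was most like PGRMC2 (0.995), PLCB4 (0.990) and MAFF (0.99), the last a small MAF transcription factor gene. BHLHE40 was closest to ADAM10, a membrane protease gene, PAWR and CAAP1, each at 0.99 or above. EGLN1 was closest to PPP2R1B (0.990), LRRC59 (0.985) and EFCAB14 (0.983). The rising members were less tightly matched, HIF1A to IL13RA1 (0.968), NRP1 (0.956) and AGPAT4 (0.954), and HIF1AN to PLXDC2 (0.966), IDH2 (0.965) and CHKB (0.963).

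Further genes of the pathway came from lists written with general knowledge, some genes standing in several lists. Of 13 measured paralogues and partners of HIF subunits, 4 rose and 2 fell under erastin and 5 rose and 0 fell in DMSO (46.2% and 38.5% called, against 28.2% and 28.6% of all genes). NPAS2, a clock transcription factor gene related to the HIF family, was called higher at 0.81 under erastin and 1.22 in DMSO, with other probe sets at −0.12 to 0.85 and −0.08 to 1.00. Its siNT means of 5.50 and 5.51 lie among the dim marker genes, so its size is uncertain. Values below keep that order, erastin medium and then DMSO. The coactivator gene NCOA1 rose by 0.43 and 0.47 on its brightest probe set. ARNT2, the paralogue of ARNT, was called at 0.33 and 0.34, likewise from dim siNT means of 5.90 and 6.04. BMAL1, which encodes a clock protein of the same family, was called at 0.14 and 0.25. Its call under erastin was close to the threshold (limma adjusted p = 0.0478). A dimmer BMAL1 probe set gave 0.24 in DMSO without a call (limma adjusted p = 0.521). CITED2, which encodes a competitor for HIF coactivators, was called at 0.21 in DMSO and was at −0.07 under erastin. Of 15 measured oxygen sensing and degradation genes, 4 rose and 1 fell under erastin and 3 rose and 1 fell in DMSO. The 33.3% and 26.7% called were near the 28.2% and 28.6% of all genes. The fall was that of SIAH2, a ubiquitin ligase gene whose product acts on prolyl hydroxylases, at −1.03 and −0.72. P4HTM, a further prolyl hydroxylase gene, rose by 0.61 and 0.60, and RBX1, a subunit of the VHL ligase complex, by 0.55 and 0.42. USP33, a deubiquitinase gene, was called at 0.23 and 0.30 on its brightest probe set, while the others gave 0.08 and 0.07 under erastin and 0.02 and −0.08 in DMSO with no call. NEDD8, which encodes a modifier of cullin ligases, was called at 0.23 under erastin and was at 0.13 in DMSO.

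Of 9 genes of HIF translation and turnover, 2 rose and 3 fell under erastin and 2 rose and 4 fell in DMSO (55.6% and 66.7% called, against 28.2% and 28.6% of all genes), led by the mTORC1 inhibitor gene DDIT4 at −1.93 in each medium. EIF4EBP1, a translation repressor gene, was at −0.41 and −0.83, and the transcription factor gene FOXO3 rose by 0.38 and 0.41. SART1, at −0.32 and −0.31, and the mTORC1 restraining gene TSC1, at 0.22 and 0.16, were also called in both media. With erastin, EIF4EBP1 rose by 0.61 in siTAZ cells and was at 0.19 in siNT cells without a call (limma adjusted p = 0.42). The difference between these responses was not called either (limma adjusted p = 0.709). Of 20 measured partners of BNIP3 and mitophagy genes, 3 rose and 4 fell under erastin and 2 rose and 4 fell in DMSO. The 35% and 30% called were close to the 28.2% and 28.6% of all genes. GABARAPL1, which encodes an autophagosome protein of the kind BNIP3L binds, rose by 0.61 and 0.81, and both its probe sets rose. BCL2, whose product binds BNIP3 proteins, rose by 0.61 and 0.75 on its brightest probe set, while dimmer ones gave −0.24 to 0.20 under erastin and −0.09 to 0.31 in DMSO. BCL2L1, a related survival gene, was at −0.43 and −0.35, and MTCH2, a mitochondrial outer membrane gene, at −0.38 and −0.46, each called in both media.

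Of 15 measured BHLHE40 partners and clock genes, 5 rose and 2 fell under erastin and 3 rose and 2 fell in DMSO (46.7% and 33.3% called, against 28.2% and 28.6% of all genes). BHLHE41, the paralogue of BHLHE40, rose by 0.81 and 0.95 (adjusted p = 2.36e-06 and 6.94e-07), opposite to BHLHE40. The falls in both media were those of CLOCK, at −0.36 and −0.39, and CRY1, at −0.39 and −0.27. PER2, a core clock gene, was called at 0.48 under erastin and was at 0.11 in DMSO, and its dimmer probe set gave −0.08 and −0.02 with no call. Of 48 other HIF target genes, 18 fell and 7 rose under erastin, and 18 fell and 8 rose in DMSO. That is 52.1% and 54.2% called, beside 28.2% and 28.6% of all genes, although the list medians of −0.06 and −0.01 were close to the 0.01 and −0.01 of all genes. The largest falls were those of DDIT4 and ADM (−1.82 and −1.86), followed by the lipoprotein lipase inhibitor gene ANGPTL4 (−1.37 and −1.70) and the sterol regulator gene INSIG2 (−1.42 and −1.27). With erastin, DDIT4 rose by 1.52 in each siRNA and STC2, a secreted glycoprotein gene, by 1.25 in siTAZ and 0.77 in siNT cells, while the oxygenase gene JMJD6 was called at −0.31 in siNT cells over genes but not over all probe sets (adjusted p = 0.0529). These were the called HIF target genes of that list, 2 in siTAZ and 3 in siNT cells.

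**Figure D4:**
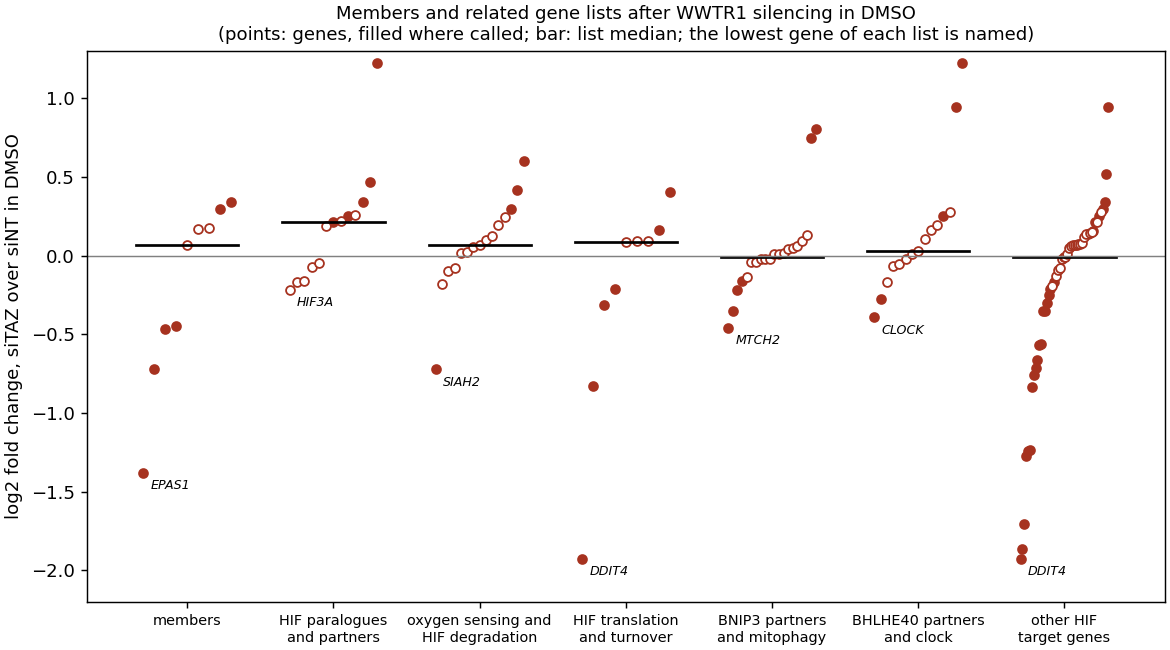
Log2 fold change of siTAZ over siNT in DMSO (y axis) for the members and 6 lists of related genes (x axis); each point is a gene, filled where the adjusted p was under 0.05, black bars are list medians and the lowest gene of each list is named. EPAS1 is the lowest member at −1.38, DDIT4 the lowest in 2 lists at −1.93, and list medians lie between −0.01 and 0.21.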

How the data were processed

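The authors deposited log2 probe set signals, whose tools were RMA and Affymetrix Expression Console per the submitters' processing notes; the sources used here give no version or genome build. RMA values have no detection call, and arrays have no read depth, so the array number and the dim range of marker genes limit what can be read. Probe sets were named from GEO's platform annotation. Left out of 22277 were 62 controls, 1043 naming several genes and 2108 naming none. Each gene was represented by its brightest probe set (mean of 12 arrays).

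All 12 arrays entered 1 fit with a mean per group in limma 3.58.1 (R 4.3.3; 8 residual and 3.90 prior degrees of freedom), adjusted over all genes, and a second fit over every probe set. The script was tested on simulated data. For single members, arrays were permuted within the other factor. The same was done for the differences EPAS1 minus HIF1A and BNIP3L minus BNIP3, in 4 tests whose p-values are not used. With 3 arrays against 3 an exact permutation p cannot go under 0.1, so pairwise comparisons rest on limma. P-values set each difference against the spread between these arrays.

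Members, lists, comparisons and alternatives were chosen with earlier results of these data known. Named from each list were up to 3 called genes with the largest change per pairwise comparison, and all where 5 or fewer were called. Replicate numbers were not taken as pairs. Alternatives were median centring, a second quantile normalization, a filter on dim genes, the mean of all probe sets, array weights, a replicate block, trend and robust settings, the actin covariate, a fit of only the compared groups and leaving out each array; the closing section gives their effect.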

Additional observations from a re-analysis of the deposited data

How the results depend on the processing

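Of 1289 member values under the alternatives, 1273 kept their side of the threshold, 4 lost a call, 12 gained one and 0 called values changed sign; the cause was not tested. The counts of members called for siTAZ stayed within 1.5 times of 5 under erastin (4 to 6) and 6 in DMSO (5 to 6), and erastin in either siRNA and the interaction had 0 throughout. For the average erastin effect, 2 members in place of 0 were called with array weights and with the trend and robust settings, and 0 to 1 with 1 array left out. VHL had no value where genes under the 25th percentile of signal were left out. The average siTAZ effect on VHL was called in 3 alternatives and is dim in all of them.

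Counts over all genes were stable for siTAZ and not for erastin. For erastin in siNT cells, 96 calls became 186 with trend and robust settings, 324 with array weights, 15 with only the compared groups, 39 with the replicate block and 30 to 79 with 1 array left out. In siTAZ cells, 67 became 164 with trend and robust settings, 166 with array weights, 34 with the replicate block and 30 to 81 with 1 array left out. The average erastin effect had 358 calls with trend and robust settings, 679 with array weights, 141 with the replicate block and 126 to 295 with 1 array left out, beside 227. The interaction had 10 calls with trend and robust settings, 3 with median centring, the second quantile normalization, array weights or the filter on dim genes, and 0 to 1 with 1 array left out.

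Arrays with the same replicate number deviated together in 4 of 18 pairs (correlation over 0.1, range −0.42 to 0.36). Arrays with different numbers did so in 13 of 36 pairs (range −0.42 to 0.34). With so few arrays per group, these correlations cannot decide whether the numbers pair the samples. With the replicate block the calls of the 9 members were the same in the pairwise comparisons. The VHL probe set and the dimmer EPAS1, ARNT and BHLHE40 probe sets limit what can be read there.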

Other observations

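The dimmer BHLHE40 probe set, whose signals lie among the dim marker genes, averaged 5.29 on siTAZ erastin and 5.53 on siTAZ DMSO arrays, against 6.02 on siNT erastin and 5.64 on siNT DMSO arrays. Its interaction of −0.62 ± 0.20 had an unadjusted p of 0.0103 and did not pass over all probe sets (limma adjusted p = 0.799), and the brighter BHLHE40 probe set gave −0.13 ± 0.10. CITED2, a HIF-competing coactivator binder and itself a HIF target, was called at 0.21 in DMSO on its brighter probe set over genes (adjusted p = 0.0476) but not over all probe sets (adjusted p = 0.0597), while its dimmer probe set gave −0.06 there and was called in the opposite direction under erastin, at −0.58 (adjusted p = 0.0131).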
